A study of Mus musculus with 32 samples.

Results

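The G1/S cyclins and their regulators were followed as 10 genes, Ccnd1, Ccnd2, Ccnd3, Ccne1, Ccne2, Cdk6, Cdkn1b, Rbl1, Rbl2 and E2f1, out of the 49980 genes of the mouse annotation used. They were chosen by name, with earlier results of these data known. A peak of N6-methyladenosine (m6A), a methyl mark on adenosines inside RNA, was counted for a gene when its summit, the position of highest signal, lay in the mm10 body of that gene on either strand. All 10 genes had at least 1 peak, 351 peaks in all, and the peaks of the 16 lists merged by strand into 69 of the 80081 regions of the series.

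Embryonic stem cells of C57BL/6 mice were the source of the RNA. The medium held 1000 U/ml LIF, 3 µM CHIR99021 (an inhibitor of GSK3) and 1 µM PD0325901 (an inhibitor of MEK). Cells labelled Mettl3 CKO or Mettl14 CKO were set against the Control cells of the same line, and m6A-bearing RNA was immunoprecipitated from chromatin-associated RNA (caRNA, with ribosomal RNA removed) and from polyadenylated RNA (mRNA). METTL3 is the catalytic subunit of the m6A methyltransferase and METTL14 its partner. This gave 8 groups of 2 libraries: Mettl3 CKO, Mettl3 Control, Mettl14 CKO and Mettl14 Control, each in caRNA and in mRNA. The labels say neither how the genes were deleted nor how completely, nor whether the 2 libraries of a group came from separate cultures, so the spread between them may be technical.

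The lists held 37955 to 45241 peaks in caRNA and 16537 to 23380 in mRNA, and read depth is unknown. Mettl3 CKO lists were longer than Mettl3 Control lists in caRNA (45241 and 41162 peaks, against 37955 and 40090). Mettl14 CKO lists were shorter than Mettl14 Control lists in caRNA (38272 and 39385, against 42514 and 41315) and longer in mRNA (23380 and 22654, against 16537 and 17738). All 8 stem cell markers examined had peaks in every caRNA library, and 6 to 8 of them in each mRNA library. Of 8 markers of fibroblasts, the usual feeder cells of stem cell cultures, 7 and 7 had peaks in Mettl3 CKO caRNA against 2 and 3 in Mettl3 Control caRNA, and 5 and 5 in Mettl14 CKO mRNA against 2 and 2 in Mettl14 Control mRNA. The counts were 4 and 5 in Mettl14 CKO caRNA against 4 and 4 in Mettl14 Control, and 6 and 6 in Mettl3 CKO mRNA against 4 and 7 in Mettl3 Control. The fibroblast genes Col1a2 and Pdgfrb had peaks in all 16 libraries, while Mmp2 had them in 2 libraries and S100a4 in 1. The part of list length and of these markers in the results below was not tested. The Mettl3 gene kept a peak in all 4 caRNA libraries of the Mettl3 line. Mettl14 had peaks in both Mettl14 Control caRNA libraries (folds of 3.82 and 2.82) and in neither Mettl14 CKO caRNA library. In Mettl14 mRNA it had a peak in 1 CKO library (2.30) and in both Control libraries (1.69 and 3.07). In the Mettl3 line it had peaks in both CKO caRNA libraries (5.53 and 5.33), in neither Control caRNA library and in no mRNA library.

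D-type cyclins (Ccnd1, Ccnd2 and Ccnd3) bind the kinases CDK4 and CDK6 and start the phosphorylation of the retinoblastoma family, whose pocket proteins p107 (Rbl1) and p130 (Rbl2) hold E2F factors in repressive complexes. Cyclins E1 and E2 (Ccne1 and Ccne2) bind CDK2 and carry the cell into S phase, p27 (Cdkn1b) inhibits cyclin-kinase complexes, and E2F1 activates genes of DNA replication. Embryonic stem cells are known for a short G1 phase. The m6A enzyme complex prefers an adenosine in the letters GGAC and related sequences, and in mRNA the mark lies mainly near stop codons and in long exons.

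The sequences at listed starts of the genes are shown because 3 of the 8 promoter windows found for 7 of the genes (RefSeq, GRCm38.p6) overlapped an m6A peak on their own strand. Each window runs 5′ to 3′ on the strand of the gene, with 250 bases before the start and 50 after it, and capitals mark every GGAC on that strand. The E2f1 window lies at chr2:154569377-154569676 (minus strand), the Cdkn1b window at chr6:134920151-134920450 (plus strand), and the second Ccnd3 window, at its downstream start, at chr17:47593217-47593516 (plus strand). The E2f1 body begins further upstream, at chr2:154569892, so all bases of the E2f1 window lie inside the gene body.
E2f1: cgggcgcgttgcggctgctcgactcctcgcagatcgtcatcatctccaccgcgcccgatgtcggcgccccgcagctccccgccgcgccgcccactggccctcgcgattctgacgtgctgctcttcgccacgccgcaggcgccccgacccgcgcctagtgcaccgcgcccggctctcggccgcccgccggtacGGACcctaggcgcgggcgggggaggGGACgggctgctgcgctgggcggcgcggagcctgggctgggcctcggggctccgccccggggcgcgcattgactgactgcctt
Cdkn1b: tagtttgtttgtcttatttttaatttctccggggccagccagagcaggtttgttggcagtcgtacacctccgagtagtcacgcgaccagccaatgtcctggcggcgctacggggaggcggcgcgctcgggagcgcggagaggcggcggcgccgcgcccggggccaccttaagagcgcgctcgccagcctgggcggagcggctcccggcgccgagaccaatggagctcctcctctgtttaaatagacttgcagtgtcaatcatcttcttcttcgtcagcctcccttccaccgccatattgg
Ccnd3: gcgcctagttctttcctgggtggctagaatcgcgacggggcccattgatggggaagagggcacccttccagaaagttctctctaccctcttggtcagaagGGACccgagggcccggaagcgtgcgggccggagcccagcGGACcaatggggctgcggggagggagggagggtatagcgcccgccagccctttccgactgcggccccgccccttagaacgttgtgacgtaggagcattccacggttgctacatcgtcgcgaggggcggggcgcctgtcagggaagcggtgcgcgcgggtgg

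The E2f1 window overlapped a peak in 8 libraries. The Cdkn1b window did so in 2, both Mettl3 Control caRNA, and the Ccnd3 window in 1, Mettl3 Control caRNA. Over all 32851 windows of the table, 9.89% overlapped an own-strand peak of at least 1 library. That share keeps the windows of genes without any peak, while all 10 genes had peaks, so the sets are not alike. E2f1 and the second Ccnd3 window each held 2 GGAC and the Cdkn1b window none. The Ccnd3 peak covered the last 14 bases of its window, beyond both GGAC, and the Cdkn1b peaks the last 7 and 54. E2f1 peaks reached neither GGAC in Mettl14 CKO mRNA (67 and 66 bases), first Mettl14 Control mRNA (66) and first Mettl3 Control caRNA (68). In the second libraries of these Control groups (104 and 93 bases) they reached the later GGAC alone. In Mettl14 Control caRNA (300 and 145 bases) they covered both. GGAC occurred on the own strand of 65.6% of all windows and on either strand of 87.7%.

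Per library, the 10 genes held 25 to 37 peaks in caRNA (0.0653% to 0.0870% of the list) and 9 to 15 in mRNA (0.0488% to 0.0642%). Most genes had peaks in both fractions, but Ccnd3 had none in mRNA and Ccnd2 none in caRNA of the Mettl3 line.

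**Figure D1:**
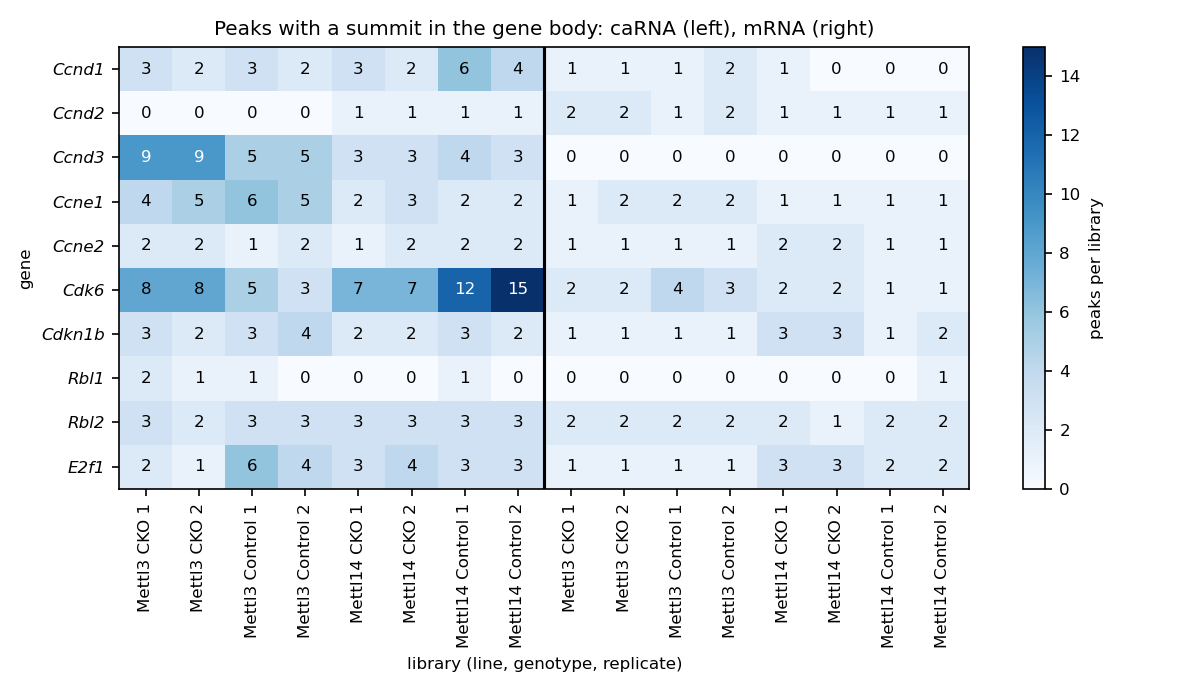
Number of peaks with a summit in each gene body (rows) in each of the 16 libraries (columns), with caRNA left of the line and mRNA right of it. Cdk6 in Mettl14 Control caRNA held the most, 12 and 15 peaks, and Ccnd3 had no peak in any mRNA library.

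The caRNA lists held more peaks than the mRNA lists over most of these genes. The number of peaks per gene was compared by an exact two-sided permutation test over the 16 libraries, within line and genotype, with Benjamini-Hochberg adjustment over the 14251 genes that had a peak in at least 4 libraries. Of the 10 genes, 6 had more peaks in caRNA and 0 had fewer. Over all genes tested, 38.1% had more and 2.72% fewer, and the median difference of caRNA minus mRNA was 1.25 peaks for the 10 genes and 0.75 for all genes. A peak is a place of enrichment over background and not a methylation level. A missing peak can come with less methylation, less RNA or less depth, which cannot be told apart here.

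Cdk6 showed the widest gap, with 8.13 ± 3.80 peaks in caRNA and 2.13 ± 0.991 in mRNA (mean ± SD, n = 8 each, exact permutation test, adjusted p = 0.0160). Ccnd3 had 5.13 ± 2.53 peaks in caRNA and 0 in every mRNA library (n = 8 each, exact permutation test, adjusted p = 0.00823). Ccne1 had 3.63 ± 1.60 against 1.38 ± 0.518 (adjusted p = 0.00823, exact permutation test) and Ccnd1 3.13 ± 1.36 against 0.75 ± 0.707 (adjusted p = 0.0142, exact permutation test). These 4 genes code for cyclins or for a cyclin partner. E2f1 had 3.25 ± 1.49 peaks in caRNA against 1.75 ± 0.886 in mRNA (adjusted p = 0.0353, exact permutation test), and Rbl2 2.88 ± 0.354 against 1.88 ± 0.354 (adjusted p = 0.0160, exact permutation test). The differences for Ccne2, Cdkn1b and Rbl1 were 0.5, 1 and 0.5 peaks and did not pass (adjusted p of 0.230, 0.138 and 0.310, exact permutation test). Ccnd2 ran the other way, with 0.5 peaks in caRNA against 1.38 in mRNA, and did not pass either (adjusted p = 0.0960, exact permutation test).

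These calls rest on the full lists, which were longer in caRNA. With the 10000 peaks of highest −log10 p in each library, 7 of the genes could be tested, 0 had more peaks in caRNA, and Ccnd2 had fewer by 0.875 (adjusted p = 0.0408, exact permutation test). Over all genes that setting left 382 higher and 583 lower in caRNA of 8514 tested. On the strand of the gene alone, Ccnd1, Ccne1, Cdk6 and E2f1 passed, while Ccnd3 (adjusted p = 0.0588, exact permutation test) and Rbl2 (adjusted p = 0.377, exact permutation test) did not. E2f1 no longer passed without the first Mettl3 CKO caRNA library (adjusted p = 0.0572) or without the second Mettl14 CKO caRNA library (adjusted p = 0.057, exact permutation test).

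Of the 69 regions, 45 (65.2%) held peaks of caRNA libraries alone, 20 (29.0%) of both fractions and 4 of mRNA libraries alone. Over all genes the shares were 55.0% for caRNA alone and 38.0% for both. In caRNA, 23.2% of the 207 summits on the strand of the gene lay in the first 10% of the body and 20.8% in the last 10%, against 14.9% and 20.4% for all protein-coding genes. Of the 43 caRNA summits in the last 10%, 18 belonged to Ccnd3 and lay beyond its downstream start. In mRNA, 14.8% of 88 summits lay in the first 10% and 28.4% in the last 10%, against 9.04% and 33.9%. In both fractions the shares for all protein-coding genes leave out summits in shared gene bodies, while those of the 10 genes keep them. Regions with peaks in all 16 libraries numbered 3, in Cdkn1b, Rbl2 and E2f1. Another 17 regions (24.6%, against 20.3% over all genes) rested on 1 library. Of the caRNA peaks, 46 of 253 (18.2%) lay on the strand opposite to the gene, and of the mRNA peaks 10 of 98 (10.2%). Over protein-coding genes with a strand in the RefSeq promoter table, the shares were 8.25% and 7.51%. Those shares leave out peaks in shared gene bodies, which the counts of the 10 genes keep, so the sets are not alike. Most antisense peaks of the 10 genes belonged to Ccnd3 (21 peaks) and Rbl2 (15 peaks). The antisense Rbl2 region found in 7 caRNA and 5 mRNA libraries lay in the body of Aktip.

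**Figure D2:**
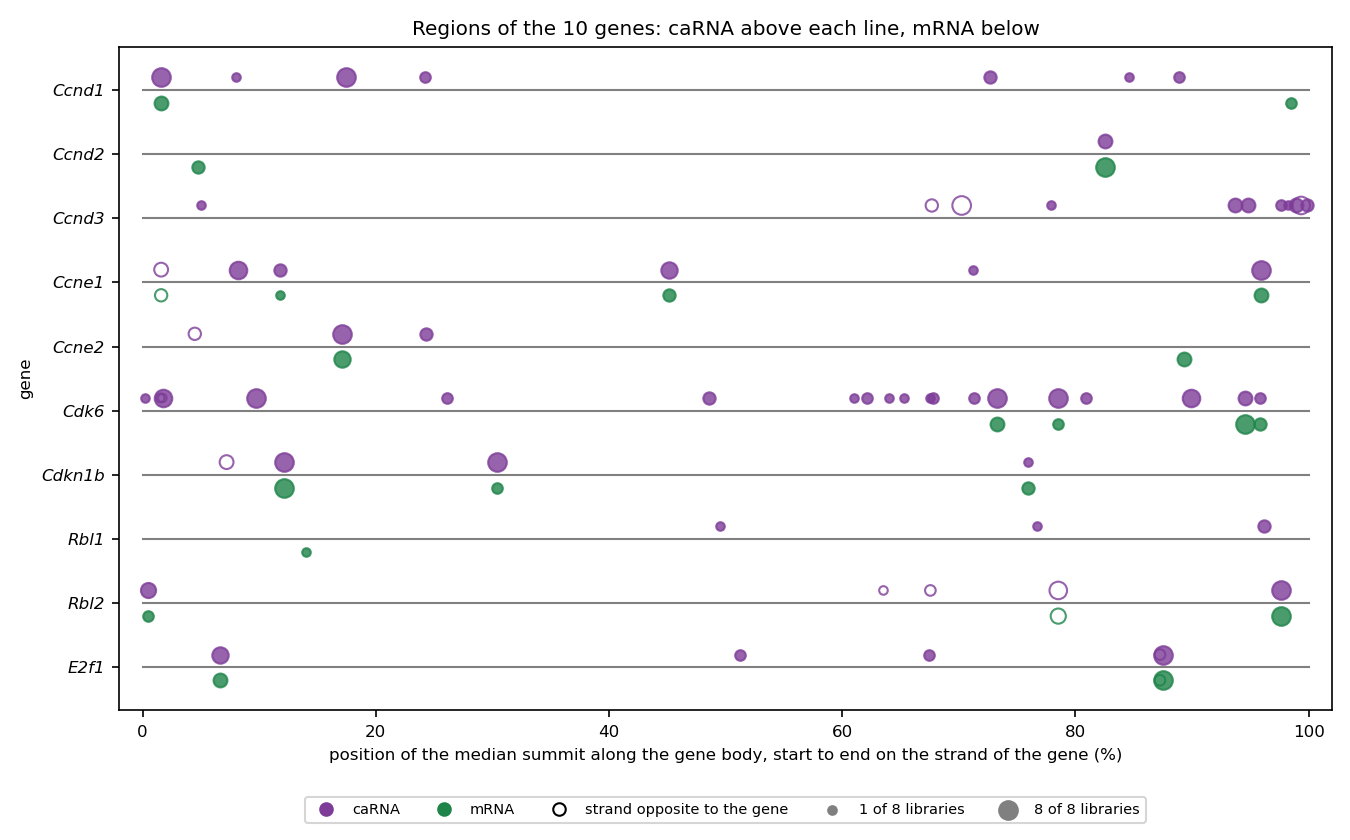
Position of each region along the gene body, in percent from the start to the end on the strand of the gene, with caRNA above each line and mRNA below it. The point area grows with the number of libraries (1 to 8), and open circles lie on the strand opposite to the gene. Most sense regions of Ccnd3 lie near the end of its body, beyond its downstream start.

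Among the D-type cyclins, Ccnd1 (chr7:144929931-144939831, minus strand) had its most widely found peaks near the gene start. The region chr7:144939293-144939832 had peaks in all 8 caRNA libraries, with folds of 4.92 and 11.3 in Mettl3 CKO, 5.24 and 10.03 in Mettl3 Control, 4.22 and 10.7 in Mettl14 CKO, and 6.05 and 3.84 in Mettl14 Control. A fold here is the authors' enrichment value of a peak in its own list, used for description and rank within that list. In every group but Mettl14 Control, the second library lay well above the first. In mRNA the same region gave 1.96 and 2.23 in Mettl3 CKO, 4.44 in the second Mettl3 Control library and 1.495 in the first Mettl14 CKO library, and no peak in the other 4 mRNA libraries. Over the whole gene, the best peak of Ccnd1, which lay in another region in some libraries, ranked at percentiles 45.9 to 95.4 of the caRNA lists by fold and at percentiles 0.492 to 44.7 of the mRNA lists with a peak. A second region, chr7:144938027-144938241, had peaks in all 8 caRNA libraries and in no mRNA library.

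Ccnd2 (chr6:127125162-127152188, minus strand) had its main region at chr6:127129485-127130068, 4718 bp from the end of the gene body. Peaks stood there in all 8 mRNA libraries, with folds of 5.00 and 4.45 in Mettl3 CKO, 3.91 and 4.05 in Mettl3 Control, 3.99 and 5.87 in Mettl14 CKO, and 3.64 and 2.27 in Mettl14 Control. In caRNA they stood in the Mettl14 line alone, with 7.08 and 6.68 in CKO against 3.76 and 4.89 in Control, and the Mettl3 line had none in 4 libraries. The CKO folds lay above the Control folds in each of the 3 pairs of groups with peaks, and no test between lists was made. By rank within their own lists, the Mettl14 mRNA peaks overlapped, at percentiles 27.2 and 56.3 in CKO against 33.0 and 11.2 in Control. The Mettl3 mRNA and Mettl14 caRNA pairs kept the order by rank. How often folds separate in this way over all regions was not counted.

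Ccnd3 (chr17:47505051-47599689, plus strand) was marked in caRNA only, in 11 regions, with 9 and 9 peaks in Mettl3 CKO, 5 and 5 in Mettl3 Control, 3 and 3 in Mettl14 CKO, and 4 and 3 in Mettl14 Control. All 6 sense regions beyond its downstream start, the one whose sequence is given above, had peaks in libraries of the Mettl3 line and in none of the Mettl14 line. The one at chr17:47593503-47593799 gave 3.91 and 3.12 in Mettl3 CKO against 2.79 and 2.98 in Mettl3 Control. On the opposite strand, chr17:47571313-47571739 had peaks in all 8 caRNA libraries, with folds of 2.79 to 7.64, and 21 of the 41 peaks of Ccnd3 were antisense. The opposite-strand region at the gene end overlaps the body of Bysl, so its reads can belong to that gene.

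Cdk6 (chr5:3341004-3531008, plus strand), the kinase partner of the D-type cyclins, held the most peaks, 82 in 20 regions over a body of 190005 bp, and 16 of these regions were found in caRNA alone. The region with the highest fold of all 10 genes, chr5:3359379-3359594, lay 18486 bp from the start of the body. Its folds were 17.1 and 11.6 in Mettl3 CKO caRNA against 10.3 and 10.8 in Mettl3 Control, and 7.39 and 7.996 in Mettl14 CKO caRNA against 4.33 and 4.80 in Mettl14 Control. CKO lay above Control in both lines, and no mRNA library had a peak there. The share of all regions with such an order of folds was not counted. The best Cdk6 peak ranked at the 99.5th and 95.9th percentile of the Mettl3 CKO caRNA lists, against the 89.1st and 91.6th in Mettl3 Control. Near the other end, chr5:3520559-3520812 had peaks in all 8 mRNA libraries, with folds of 1.903 to 4.31, and in caRNA in the Mettl14 line alone, at 5.25 and 4.57 in CKO against 7.27 and 3.53 in Control.

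**Figure D3:**
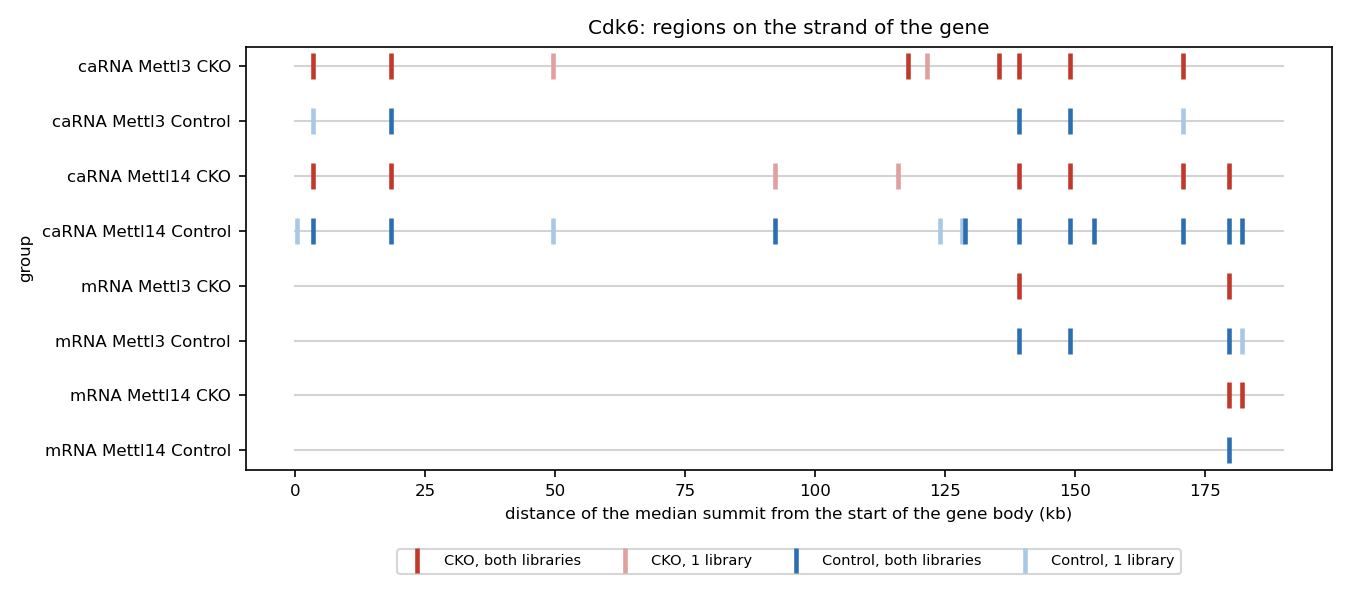
Cdk6 regions on the strand of the gene, by distance of the summit from the start of the gene body in kb, with 1 row per group. Dark marks had a peak in both libraries and pale marks in 1, and Mettl14 Control caRNA has the most marks.

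The E-type cyclins had peaks in all 16 libraries. In Ccne2 (chr4:11190433-11204779, plus strand) the region chr4:11192742-11193016 stood in all 8 caRNA libraries and in 6 mRNA libraries. Its folds in mRNA were 7.38 and 13.7 in Mettl3 CKO, 9.73 and 8.37 in Mettl3 Control, and 5.63 and 4.72 in Mettl14 CKO, and Mettl14 Control had none. In caRNA they were 8.22 and 7.10 in Mettl3 CKO against 6.14 and 9.34 in Mettl3 Control, and 8.49 and 9.502 in Mettl14 CKO against 6.26 and 4.20 in Mettl14 Control. A further region near the end, chr4:11203139-11203335, was found in the 4 mRNA libraries of the Mettl14 line and overlaps the body of Ints8.

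Ccne1 (chr7:38097984-38107490, minus strand) had a region at its end, chr7:38098030-38098706, with peaks in all 8 caRNA libraries. The folds were low, 2.13 and 1.87 in Mettl3 CKO against 2.98 and 3.67 in Mettl3 Control, and 2.32 and 2.54 in Mettl14 CKO against 4.12 and 3.17 in Mettl14 Control. CKO lay below Control in both lines, and how often this happens over all regions was not counted. In mRNA the same region had peaks in Mettl3 Control (2.47 and 2.28) and in Mettl14 CKO (1.64 and 1.83), and in neither Mettl3 CKO nor Mettl14 Control. At the 5′ end, chr7:38106621-38106948 ran the other way in caRNA, with 3.52 and 3.59 in Mettl3 CKO against 1.96 and 2.49 in Mettl3 Control, and 6.68 and 8.28 in Mettl14 CKO against a peak of 2.91 in the second Mettl14 Control library alone.

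Cdkn1b (chr6:134920401-134925525, plus strand), the inhibitor, had a region in all 16 libraries just inside its start, chr6:134920397-134921369, which continues from the last bases of the promoter window printed above. Its folds in caRNA were 2.92 and 8.81 in Mettl3 CKO, 5.45 and 5.33 in Mettl3 Control, 10.7 and 8.22 in Mettl14 CKO, and 11.6 and 9.84 in Mettl14 Control. In mRNA they were 3.33 and 3.81 in Mettl3 CKO, 3.14 and 3.72 in Mettl3 Control, 4.38 and 3.55 in Mettl14 CKO, and 3.20 and 2.88 in Mettl14 Control. Every caRNA value but the first lay above every mRNA value. On the opposite strand, chr6:134920636-134920887 had peaks of 6.05 in the first Mettl3 CKO caRNA library, of 8.73 and 8.28 in Mettl3 Control caRNA and of 3.82 in the first Mettl14 Control caRNA library. Over the whole gene and both strands, the best Cdkn1b peak ranked at the 72.9th to 91.5th percentile of the caRNA lists and at the 20.2nd to 63.3rd of the mRNA lists. A second region, chr6:134921831-134922343, stood in all 8 caRNA libraries with folds of 3.39 to 5.25, and in mRNA in Mettl14 CKO alone (1.94 and 1.67).

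The pocket protein genes differed from each other. Rbl1 (chr2:157145893-157204534, minus strand) had 6 peaks in 5 libraries, 4 of caRNA and 1 of mRNA. The region near its end, chr2:157148022-157148349, gave 3.25 and 3.10 in Mettl3 CKO caRNA against 4.11 in the first Mettl3 Control library, and its other 3 regions rested on 1 library each. Rbl2 (chr8:91070057-91123844, plus strand) had 38 peaks in all 16 libraries. Its region near the end, chr8:91122203-91123013, gave 8.38 and 7.57 in Mettl3 CKO mRNA against 5.64 and 5.54 in Mettl3 Control mRNA, and 11.9 and 9.03 in Mettl14 CKO mRNA against 7.13 and 7.35 in Mettl14 Control mRNA. In caRNA the order was turned, with 4.12 and 3.51 in Mettl3 CKO against 6.80 and 8.05 in Mettl3 Control, and 3.94 and 5.55 in Mettl14 CKO against 6.49 and 5.68 in Mettl14 Control. The CKO and Control folds did not overlap in any of these 4 pairs, and how often this happens over all regions was not counted. By rank within their own lists, the Mettl14 mRNA peaks did overlap, at percentiles 90.6 and 81.2 in CKO against 81.6 and 84.4 in Control. The other pairs were not all ranked, as another region held the best Rbl2 peak in some libraries. The body of Aktip overlaps this region, and 28 of the 38 peaks counted for Rbl2 lay in such shared sequence.

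E2f1 (chr2:154559400-154569892, minus strand) had 2 main regions. That at its 3′ end, chr2:154560439-154561601, had peaks in all 16 libraries. In caRNA its folds were 4.62 and 3.02 in Mettl3 CKO against 9.59 and 7.62 in Mettl3 Control, and 8.16 and 8.68 in Mettl14 CKO against 14.4 and 13.0 in Mettl14 Control. CKO lay below Control in both lines, and the Mettl3 CKO peaks ranked at the 51.5th and 13.8th percentile of their lists against the 87.0th and 78.5th in Mettl3 Control. The share of all regions whose folds lie apart like this was not counted. In mRNA the folds were 4.70 and 4.25 in Mettl3 CKO against 6.96 and 5.10 in Mettl3 Control, but 7.40 and 7.56 in Mettl14 CKO against 4.66 and 4.88 in Mettl14 Control, so the lines ran opposite ways.

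The 5′ region of E2f1, chr2:154568587-154569723, covers the promoter window printed above, which lies inside the gene body. In caRNA it had no peak in Mettl3 CKO against 4.69 and 5.67 in Mettl3 Control, and 5.18 and 3.67 in Mettl14 CKO against 12.5 and 10.4 in Mettl14 Control. In mRNA it was found in the Mettl14 line alone, with 4.57 and 3.82 in CKO against 3.89 and 4.73 in Control. The peaks of Mettl14 CKO caRNA did not reach into the printed window, whereas those of Mettl14 Control covered 300 and 145 of its bases.

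**Figure D4:**
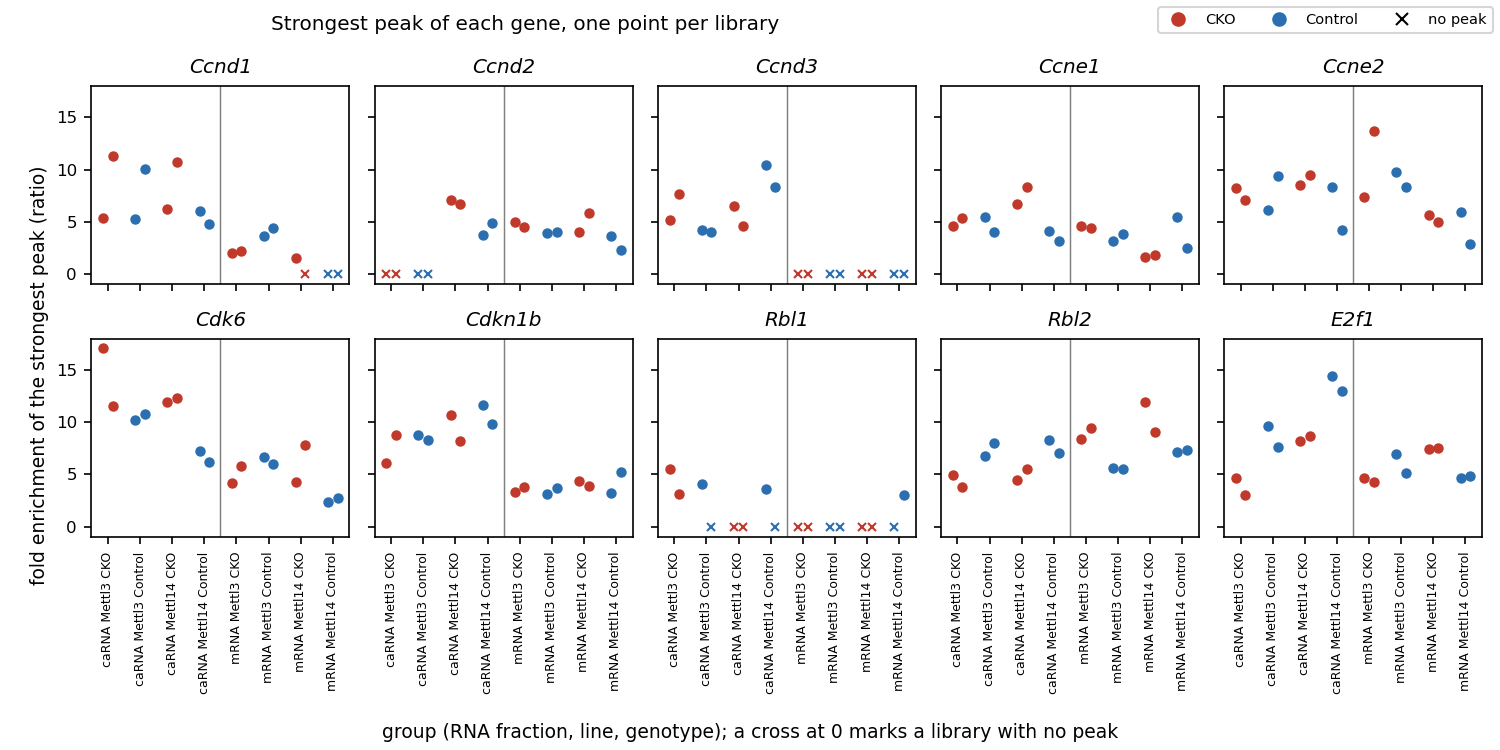
Fold enrichment of the strongest peak of each gene in each library (linear axis), by group, with CKO in red, Control in blue and a cross at 0 where the library had no peak. E2f1 in caRNA has both CKO groups below their Control groups, and Ccnd3 has crosses in all mRNA libraries.

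Whether the deletions changed which of these genes and regions carried peaks was asked in 4 comparisons, by line and fraction. A gene or region was called lost when it had a peak in both Control libraries and in neither CKO library, gained in the reverse case, and retained when all 4 libraries had one. The 2 libraries against 2 allow no exact p below 0.333, so the calls carry no test and are read against the same shares over all genes. No gene of the 10 was lost or gained in any comparison, while all genes marked in both Control libraries were retained: 8 of 8 in Mettl3 caRNA, 9 of 9 in Mettl14 caRNA, 8 of 8 in Mettl3 mRNA and 7 of 7 in Mettl14 mRNA. Over all genes, 88.3% were retained, 6.13% lost and 4.99% gained in Mettl3 caRNA, and 87.9% retained, 5.72% lost and 3.27% gained in Mettl14 caRNA. The shares were 90.5%, 4.27% and 5.08% in Mettl3 mRNA, and 96.7%, 1.84% and 13.7% in Mettl14 mRNA. A gene with several peaks can be retained although single regions in it come and go.

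In Mettl3 caRNA, 3 of the 25 regions of both Control libraries were lost (12%, against 15.7% over all genes), 5 of the 28 regions of both CKO libraries were gained (17.9%, against 16.2%), and 18 were retained (72.0%, against 74.4%). These shares lie near the background. All 3 lost regions belonged to E2f1: the 5′ region described above, chr2:154564100-154564644 in the middle of the gene (3.55 and 4.43 in Control) and an opposite-strand region at chr2:154560651-154560825 (4.88 and 4.09 in Control). E2f1 thus had 2 and 1 peaks in Mettl3 CKO against 6 and 4 in Mettl3 Control. The 5 gained regions belonged to Ccnd3 and Cdk6. That of Cdk6 at chr5:3476335-3476512 had folds of 5.11 and 5.50 in Mettl3 CKO and that of Ccnd3 at chr17:47597324-47597490 3.15 and 5.04, with no peak in Mettl3 Control. The other gained Ccnd3 regions, chr17:47598037-47598410 and chr17:47599338-47599819, lay on the opposite strand. Over all 16 lists they merged into the region that overlaps Bysl. Between them, at chr17:47598997-47599148, the second Mettl3 Control library had a peak of 4.03.

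In Mettl14 caRNA, 6 of 29 regions were lost (20.7%, against 14.5%), 1 of 21 was gained (4.76%, against 9.1%) and 19 were retained (65.5%, against 74.1%). Of the lost regions 3 lay in Cdk6, at chr5:3469732-3470142 (4.02 and 6.15 in Control), chr5:3494660-3494831 (2.65 and 4.42) and chr5:3523063-3523234 (4.42 and 5.13). The others lay in Ccnd1 (chr7:144930936-144931090, 3.64 and 4.76), in E2f1 (chr2:154562637-154563110, 3.84 and 3.68) and opposite to Rbl2 (chr8:91106291-91106443, 2.94 and 3.37). The gained region was the 5′ end of Rbl2, chr8:91070159-91070342, with folds of 4.44 and 3.65 in Mettl14 CKO. Without the first or the second Control library 11 or 13 regions were lost, as a call then needs fewer libraries. Among the 10000 strongest peaks of each library the balance was turned, with 2 regions lost, 4 gained and 0 retained.

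In Mettl3 mRNA, 5 of 12 regions were lost (41.7%, against 9.67% over all genes), 2 of 11 were gained (18.2%, against 9.91%) and 7 were retained (58.3%, against 81.2%). The lost regions were the end of Ccne1, chr7:38098140-38098457 (2.47 and 2.28 in Control), its middle, chr7:38102939-38103289 (3.16 and 3.81), a Cdk6 region at chr5:3490038-3490224 (4.84 and 5.20), the end of Ccnd1, chr7:144929975-144930135 (3.66 and 3.33, shared with LTO1), and a region opposite to Rbl2 in the body of Aktip (3.04 and 4.79). The 2 regions of Ccne1 and that of Cdk6 still had peaks in Mettl3 CKO caRNA. The gained regions were the 5′ end of Rbl2, chr8:91070199-91070378, with 7.23 and 9.43 in Mettl3 CKO, and an antisense region at the start of Ccne1, with 4.57 and 4.42. Among the 10000 strongest peaks of each library, 1 region was lost and 3 were retained in this comparison.

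In Mettl14 mRNA, 0 of 8 regions were lost (background 6.52%), 5 of 13 were gained (38.5%, against 23.9%) and 7 were retained (87.5%, against 91.1%). The gained regions were in Ccne2 (chr4:11192762-11192948, 5.63 and 4.72 in CKO), Cdk6 (chr5:3523031-3523242, 3.40 and 7.84), Ccne1 (chr7:38098130-38098467, 1.64 and 1.83), Cdkn1b (chr6:134921835-134922343, 1.94 and 1.67) and opposite to E2f1 (chr2:154560645-154560827, 5.18 and 6.98). Both Mettl14 Control mRNA lists were the shortest of the series.

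Several of these regions were called in opposite ways in different comparisons. The end of Ccne1 was lost in Mettl3 mRNA and gained in Mettl14 mRNA, and the last Cdk6 region was lost in Mettl14 caRNA and gained in Mettl14 mRNA. The antisense E2f1 region was lost in Mettl3 caRNA and gained in Mettl14 mRNA. The 5′ end of Rbl2 was gained both in Mettl3 mRNA and in Mettl14 caRNA, but not in Mettl3 caRNA. There it had peaks in both Control libraries (3.07 and 5.45) and in the first CKO library alone (4.95).

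**Figure D5:**
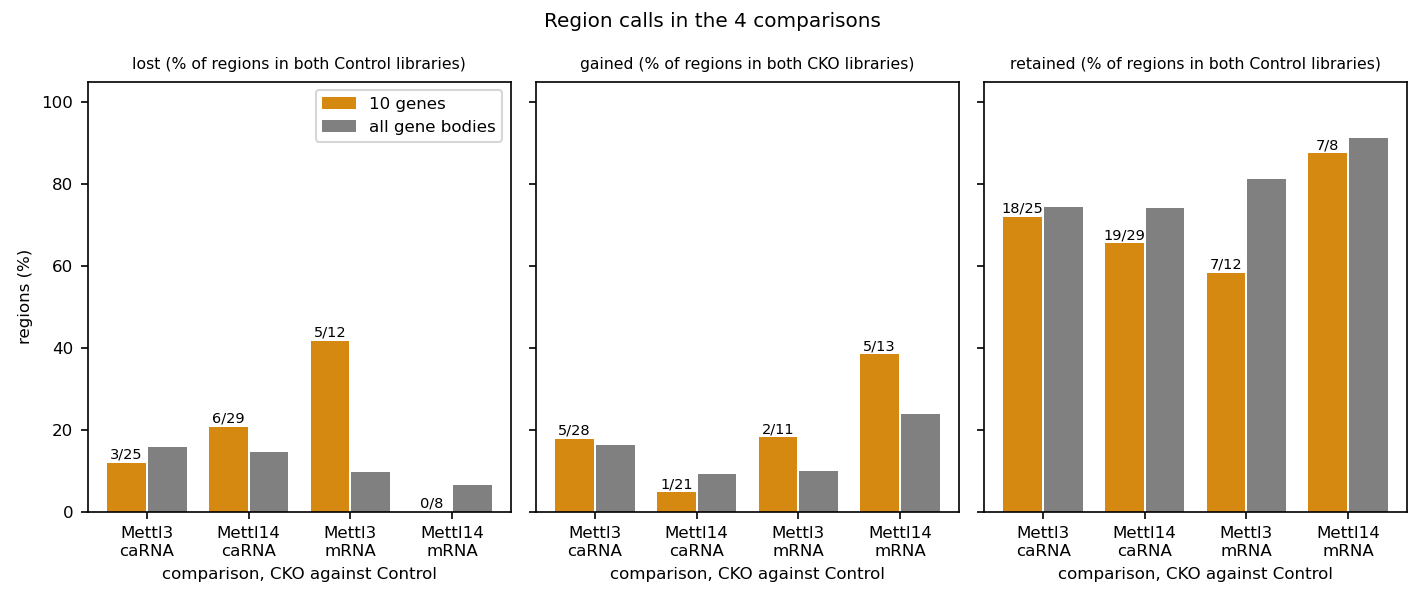
Percent of regions lost, gained and retained in each comparison of CKO against Control, for the 10 genes (orange, with counts above the bars) and for all gene bodies (grey). The share lost in Mettl3 mRNA, 41.7% against 9.67%, is the widest gap between the bars.

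In the number of peaks per gene, CKO and Control were compared over the 4 comparisons together, again with the exact two-sided permutation test. None of the 10 genes passed, and 0 of all 14251 genes tested did (0% higher and 0% lower), with 942 of all genes and 0 of the 10 below an unadjusted p of 0.05. The smallest adjusted p among the 10 was 0.847 (Ccnd3, 3.00 ± 3.93 peaks in CKO against 2.13 ± 2.36 in Control, mean ± SD, n = 8 each, exact permutation test). The median difference of CKO minus Control was -0.125 peaks for the 10 genes and 0.125 for all genes.

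Within single comparisons, some counts did not overlap between CKO and Control. In caRNA, Ccnd3 and Cdk6 were higher in Mettl3 CKO (18.8% of all genes were) and E2f1 was lower (14.5%), while Cdk6 and Ccnd1 were lower in Mettl14 CKO (15.1%) and none of the 10 was higher (10.8%). Counts without overlap that ran opposite ways in the lines were found for Cdk6 alone of the 10, in caRNA (2.95% of all genes) and in mRNA (3.37%). Cdk6 had 8 and 8 peaks in Mettl3 CKO caRNA against 5 and 3 in Mettl3 Control, and 7 and 7 in Mettl14 CKO caRNA against 12 and 15 in Mettl14 Control. Ccnd1 had 3 and 2 in Mettl14 CKO caRNA against 6 and 4 in Mettl14 Control. In mRNA, Cdk6 was lower in Mettl3 CKO (9.76% of all genes were) and none of the 10 was higher (10.5%). In Mettl14 CKO mRNA, Ccne2, Cdk6, Cdkn1b and E2f1 were higher (26.2% of all genes were) and none was lower (5.01%).

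The 29 other genes of the G1/S pathway examined, among them kinases, inhibitors, E2F and DP factors and members of the DREAM complex, are given by their counts. Of 26 tested, 10 had more peaks in caRNA than in mRNA and 0 had fewer (exact permutation test, adjusted over all genes, against 38.1% and 2.72% over all genes), namely Ccna2, Cdkn1a, E2f3, E2f4, E2f7, Tfdp1, Tfdp2, Cdc25a, Skp2 and Lin52. At the level of whole genes in Mettl3 caRNA, 4 of 23 marked in both Control libraries were lost (background 6.13%) and 3 of 21 marked in both CKO libraries gained (4.99%). In Mettl14 caRNA 1 of 22 was lost (5.72%) and 0 of 19 gained (3.27%). In Mettl3 mRNA 0 of 19 were lost (4.27%) and 1 of 17 gained (5.08%), and in Mettl14 mRNA 0 of 18 were lost (1.84%) and 2 of 21 gained (13.7%).

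Cdkn2c, which codes for the CDK4 and CDK6 inhibitor p18, was lost in caRNA of both lines. The share of all genes lost in both lines was not counted, and Cdkn2c had only 1 peak in each Control library. It had no peak in Mettl3 CKO caRNA against 5.53 and 6.84 in Mettl3 Control, and no peak in Mettl14 CKO caRNA against 5.46 and 6.41 in Mettl14 Control. In Mettl14 mRNA it kept its peak, at 9.63 and 13.0 in CKO against 8.34 and 12.7 in Control, and in Mettl3 mRNA it had a peak in the second CKO library alone (5.38) against 5.94 and 5.73 in Control. Over the 4 comparisons together its count was lower in CKO by 0.625 peaks, which did not pass (adjusted p = 0.520, exact permutation test). E2f2 (6.93 and 5.90 in Control), E2f8 (4.42 and 6.05) and Tfdp1 (1.56 and 1.62) were lost in Mettl3 caRNA. Cdk4 (2.32 and 4.46 in CKO), Cks1b (5.85 and 5.27) and E2f5 (2.40 and 4.18) were gained there. Cks1b, which codes for a small CDK-binding protein, was gained in Mettl3 mRNA too (5.25 and 6.63 in CKO). Cdk2 (2.50 and 1.95) and Rbbp4 (5.42 and 5.15), which codes for a histone-binding protein, were gained in Mettl14 mRNA.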

How the data were processed

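Of the 32 samples, the 16 immunoprecipitations each came with a peak list that separates the strands, as deposited by the authors, and the 16 inputs were not used here. The submitters' processing notes name mm10, CASAVA, Trimmomatic 0.38, HISAT2 2.1.0 and SAMtools 1.9 without their roles, and the peak caller is not given in the sources used here. Per peak, the authors deposited a fold enrichment (a ratio), −log10 p and −log10 q (at least 2.00) and a summit offset. Replicates were not pooled.

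Summits were assigned to gene bodies of RefSeq GRCm38.p6, the build of mm10, which gives neither exons nor introns. Gene strand came from the RefSeq promoter table for 7 genes, and for Ccnd1, Ccnd2 and Ccne2 from whichever strand had the higher sum of −log10 p. That rule gives the table's strand for 6 of the 7 genes and the opposite one for Ccnd3, so sense and antisense are less sure for these 3 genes. Peaks were merged into regions by strand at an overlap of at least 1 bp, per comparison for calls and over all 16 lists for the description. Peak counts per gene were compared by exact permutation (1296 label sets, smallest p 0.00154), with Benjamini-Hochberg adjustment at 0.05, in Python 3.11.15 with numpy 2.4.6 and pandas 2.3.3, and the test was tested on simulated data. All 10 genes were named, with 29 other pathway genes. The members and lists were chosen with earlier results of these data known. Replicate numbers did not pair libraries (correlations of -0.0672 to 0.0359). Alternatives were stricter peaks, equal list lengths, the strand of the gene, unshared bodies, summit distance, gene filters, a replicate block and left-out libraries. Read depth is unknown.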

Additional observations from a re-analysis of the deposited data

Results flagged for a closer look

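The number of Cdk6 peaks moved in opposite directions in the lines, in both RNA fractions. In caRNA the mean of CKO minus Control was 4 peaks in the Mettl3 line (8 and 8 in CKO, against 5 and 3 in Control) and -6.5 in the Mettl14 line (7 and 7 in CKO, against 12 and 15 in Control). In mRNA it was -1.5 in the Mettl3 line (2 and 2 in CKO, against 4 and 3 in Control) and 1 in the Mettl14 line (2 and 2 in CKO, against 1 and 1 in Control). In each case every CKO library lay on the same side of both Control libraries, and the difference between the lines was not tested. Such opposite movement without overlap was found in 2.95% of 13105 genes in caRNA and in 3.37% of 10496 genes in mRNA. List lengths moved the same way as Cdk6 in both caRNA comparisons and in Mettl14 mRNA, as given above. With the 10000 strongest peaks of each library, Cdk6 had 1 and 1 peaks in Mettl3 CKO caRNA against 1 and 1 in Mettl3 Control, 3 and 3 in Mettl14 CKO caRNA against 0 and 0 in Mettl14 Control, and 0 in every mRNA library.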

How the results depend on the processing

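Of the values recomputed under other settings, 236 stayed close to the reported ones and 48 moved. The 10000 strongest peaks of each library moved most. Under them, gene calls became 1 lost and 3 retained in Mettl3 mRNA, 3 retained in Mettl14 mRNA, 1 lost and 2 retained in Mettl3 caRNA, and 1 lost, 2 gained and 0 retained in Mettl14 caRNA. Region calls became 1 lost, 0 gained and 3 retained in Mettl3 mRNA, 1 gained and 3 retained in Mettl14 mRNA, 1 lost, 0 gained and 2 retained in Mettl3 caRNA, and 2 lost, 4 gained and 0 retained in Mettl14 caRNA. The genes higher in caRNA fell to 0, with 1 lower. That setting keeps fewer peaks by construction. Summits in unshared bodies gave 1 gained gene each in Mettl3 mRNA and Mettl14 mRNA. On the strand of the gene, 1 region was gained in Mettl3 mRNA and 3 in Mettl3 caRNA, and with summits joined within 100 nt, 4 were gained in Mettl14 caRNA. With the replicate block, although the numbers did not pair the libraries, 2 genes (Ccnd3 and Ccne1) were higher in caRNA, at a smallest possible p of 0.00781, and over all genes 2828 were higher and 66 lower; the block changed no other call.

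Leaving out each replicate gave 0 to 6 genes higher in caRNA. The 0 came from leaving out replicate 1 or 2 throughout, where no p can go below 0.125; without single libraries it was 5 or 6, with E2f1 dropping out without the first Mettl3 CKO or the second Mettl14 CKO caRNA library. Region calls ranged over 5 to 6 lost, 2 to 4 gained and 7 to 9 retained in Mettl3 mRNA, 0 to 2, 5 to 6 and 7 to 8 in Mettl14 mRNA, 4 to 6, 6 to 9 and 19 to 22 in Mettl3 caRNA, and 8 to 13, 1 to 2 and 19 to 21 in Mettl14 caRNA. A call needs fewer libraries once 1 is left out. At least 1 count moved by over 1.5 times whichever library of Mettl3 caRNA, Mettl14 caRNA or Mettl14 mRNA was left out, and without the second Control library of Mettl3 mRNA. Gene calls ranged over 0 to 1 lost in Mettl14 caRNA, 0 to 1 lost and 0 to 1 gained in Mettl14 mRNA, and 0 to 1 gained in Mettl3 caRNA. The genotype test called 0 genes under every setting. Depth is unknown, so a peak absent from a list may lie under its threshold.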
